A study of Homo sapiens with 19 samples.

Results

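GOLIM4 and CLSTN1 encode membrane proteins of the secretory pathway, and the data below describe their cassette exons and their gene reads. They are 2 of 22760 genes with reads on annotated introns in 19 libraries. The members were taken by name, and the genes were chosen by the measured difference in exon inclusion between RBFOX2 knockdown and control in these libraries. Their values by knockdown, exons and genes alike, are therefore a description and carry no test. GENCODE 29 gives the 2 genes 4 cassette exons (exons that can be joined or skipped between the same outer splice sites) of 38088 candidates, and 2 of the 4 passed the read filter that 6873 exons passed.

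The libraries were ribosomal RNA-depleted RNA from 3 human cell lines, measured as spliced reads per junction. Of these, 14 came from HUES66, an embryonic stem cell line, given 1 µg/ml doxycycline, the controls included, and by its title the study used Cas13d, a guide-directed enzyme that cuts RNA. They were 3 controls with genotype WT, 3 of RBFOX2 total knockdown (total KD), and 4 each of the isoform knockdowns named N-short (N-short KD) and N-long (N-long KD), taken at 24, 48 or 96 hr. They form 4 library sets. The first 24 hr set (replicate 1) lacks a titled control and the second (replicate 2) lacks total KD, while those of 48 hr and 96 hr hold every group. The remaining libraries, 1 each, were wild-type HUES66, HEK293 (embryonic kidney) and A375 (melanoma) total RNA, and the A375 nuclear and cytoplasmic fractions. Each set holds at most 1 library of a group, and nothing in the labels says whether libraries came from separate cultures, so the spread may be technical. Because the sets differ in time or replicate, each SD over sets or libraries below also holds those differences.

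RBFOX2 is a splicing regulator whose RNA-binding domain recognises the letters GCAUG, written GCATG in DNA. As general background, binding in the intron after an exon tends to raise its inclusion and binding before it tends to lower it. GOLIM4 (also called GPP130) is a Golgi membrane protein that cycles through endosomes and is sent to lysosomes when cells are exposed to manganese. CLSTN1 (calsyntenin 1) is a membrane protein with cadherin repeats that binds kinesin light chain and takes part in the transport of vesicles that carry the amyloid precursor protein APP.

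The exons on which the values below rest are printed 5′ to 3′ on the transcript strand, from GENCODE 29 transcripts (GRCh38), with GCATG in capitals. Both genes lie on the minus strand, GOLIM4 (ENSG00000173905.8) at chr3:168008677-168095975 and CLSTN1 (ENSG00000171603.17) at chr1:9729026-9824526. The GOLIM4 exon is at chr3:168040786-168040869, the longer CLSTN1 exon at chr1:9737498-9737554 and the shorter at chr1:9756481-9756510.
GOLIM4 84 nt exon: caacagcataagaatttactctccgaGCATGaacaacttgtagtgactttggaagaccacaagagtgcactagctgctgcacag
CLSTN1 57 nt exon: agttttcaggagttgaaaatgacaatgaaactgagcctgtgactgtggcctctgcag
CLSTN1 30 nt exon: agagttttgaggtgacagtcaccaaagaag
All 3 have a length divisible by 3, as had 46.5% of the 6873 exons tested, and all 3 are annotated as coding. The GOLIM4 exon held GCATG 1 time, and neither CLSTN1 exon held it. GCATG was in 9.92% of tested exons, and in 6.4% of the 2422 that were 50 to 100 nt long. TGCATG, which contains GCATG, and GCACG were in none of the 3 exons and in 2.72% and 4.34% of tested exons. Only the transcript strand was searched, and the introns beside the exons were not analysed here. A match is a run of letters in the exon, not a binding site.

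When an exon is skipped, its neighbours are joined. The joined sequence is shown for the 2 exons with values in every library, because the skipping reads below cross it, with 20 bases of the earlier exon in lower case and 20 of the later exon in capitals.
GOLIM4 84 nt exon skipped: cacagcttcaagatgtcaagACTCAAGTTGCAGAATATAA
CLSTN1 57 nt exon skipped: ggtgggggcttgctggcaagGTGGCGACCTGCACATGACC

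RBFOX2 itself was measured first, as a check of the labels. Scaled to library size (CPM), its junction reads ran from 119.2 to 125.8 in the 3 controls. Total KD had 48.2 to 78.7 CPM. N-short KD had 107.1 to 120.4 CPM of RBFOX2, and N-long KD 72.7 to 87.6 CPM. On this scale the N-short values overlapped the controls, with 120.4 CPM at 48 hr against 119.2 in the lowest control. With the normalisation factors of the fits they did not, at 114.1 to 124.3 against 126.3 to 134.2 CPM in controls. Whether the ranges of N-short KD and control overlap thus depends on the scale. Within each library set that holds both, N-short KD was below its control on either scale. In CPM the values were 116.5 against 125.8 at 24 hr replicate 2, 120.4 against 122.1 at 48 hr and 107.1 against 119.2 at 96 hr. Reads summed over the gene do not separate the isoforms, so this check does not settle the N-short label. Small differences in N-short KD are read with that limit. The 14 treated libraries held 9622841 to 14625040 junction reads, and the 5 others 6499183 to 27937149. Of 7 measured stem cell markers, all 7 reached 1 CPM in HUES66, where they summed to 2973 to 4598 CPM in treated libraries, against 9.04 CPM in A375 total RNA and 47.6 CPM in HEK293. The 3 measured markers of early differentiation (TBXT, GATA6 and PAX6) summed to 0 to 0.529 CPM in the treated libraries.

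Inclusion of the GOLIM4 84 nt exon was high in controls and lower in total KD and N-long KD. Inclusion is the share of reads that join the exon rather than skip it, with the 2 inclusion junctions averaged. The controls stood at 89.2% (24 hr replicate 2), 87.4% (48 hr) and 82.5% (96 hr). Total KD stood at 33.0% (24 hr replicate 1), 31.9% (48 hr) and 23.0% (96 hr). All 3 total KD libraries were below every control, and the groups did not overlap.

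N-long KD gave 44.8% and 48.7% for GOLIM4 at 24 hr, 55.2% at 48 hr and 27.5% at 96 hr. N-short KD gave 79.0% and 70.9% at 24 hr, 88.4% at 48 hr and 71.9% at 96 hr. Every N-long library was below every N-short library. The N-short values overlapped those of the controls. The 3 total KD values and the 4 N-long values overlapped across times. N-long KD at 96 hr (27.5%) was below total KD at 24 hr (33.0%) and 48 hr (31.9%). In each library set that holds both, total KD was the lower, with overlapping 95% Wilson intervals at 24 hr and 96 hr. These percentages rest on 74 to 120 reads per library, and the 95% Wilson interval of the lowest N-long value was 20.3% to 36.1%, for counting error only.

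Within library sets the GOLIM4 exon in total KD differed from control by -57.5 points ± 2.84 (SD, n = 2 sets), with a log2 odds ratio of -4.07 (SE 0.30). In N-long KD the difference from control was -42.5 points ± 11.6 (SD, n = 3 sets), and the log2 odds ratio -3.13 (SE 0.28). In N-short KD it was -9.29 points ± 9.71 (SD, n = 3 sets), with a log2 odds ratio of -0.90 (SE 0.33). The differences by set were +0.99 points at 48 hr, -10.6 at 96 hr and -18.3 at 24 hr replicate 2. N-long KD differed from N-short KD by -33.5 points ± 9.09 (SD, n = 4 sets), with a log2 odds ratio of -2.23 (SE 0.23). The difference between the isoform knockdowns was negative in all 4 sets, which is a description, since the genes were chosen by their knockdown differences.

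The 57 nt exon of CLSTN1 had a lower starting level than the GOLIM4 exon. As there, control and N-short KD lay above total KD and N-long KD. Controls were included at 19.05% (24 hr replicate 2), 33.6% (48 hr) and 29.5% (96 hr). Total KD gave 5.75% at 24 hr, 6.94% at 48 hr and 5.36% at 96 hr. No total KD library reached the lowest control.

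For the CLSTN1 57 nt exon, N-long KD gave 13.2% and 6.79% at 24 hr, 4.43% at 48 hr and 6.04% at 96 hr. N-short KD gave 17.1% and 18.3% at 24 hr, 27.7% at 48 hr and 21.6% at 96 hr. Every N-long library was below every N-short library, although the N-long and N-short libraries of 24 hr replicate 1 differed by -3.96 points, with overlapping Wilson intervals (9.07% to 18.7% against 11.9% to 24.1%). N-short KD overlapped the controls. Total KD, at 5.36% to 6.94%, lay within the range of N-long KD. At 48 hr N-long KD was below total KD, unlike for the GOLIM4 exon.

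In points, the CLSTN1 57 nt exon differed from control by -25.4 ± 1.74 (SD, n = 2 sets) in total KD, by -21.6 ± 8.59 (SD, n = 3 sets) in N-long KD and by -4.86 ± 3.67 (SD, n = 3 sets) in N-short KD. N-long KD differed from N-short KD by -13.6 points ± 8.04 (SD, n = 4 sets). The log2 odds ratios were -2.74 (SE 0.32) for total KD, -2.27 (SE 0.28) for N-long KD and -0.55 (SE 0.24) for N-short KD, and -1.72 (SE 0.26) for N-long against N-short KD. On that scale the GOLIM4 exon had the more negative value in each of these contrasts. That difference between the exons was not tested.

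In the edgeR fit 2 of 2 exons were past an adjusted p of 0.05 for total KD, for N-long KD and for N-long against N-short KD, and 0 of 2 for N-short KD. Of all 6873 exons, 1.28% were past it for total KD, 0.466% for N-long KD, 0.349% for N-long against N-short KD and 0.0145% for N-short KD. The genes were chosen for these contrasts, so nothing is read from that count. The 3 contrasts against control also share their control libraries. Over the 14 treated libraries the inclusion of the GOLIM4 and CLSTN1 exons had a Pearson r of 0.87, and over all 19 libraries 0.59, a description of libraries that share their knockdown and depth.

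**Figure D1:**
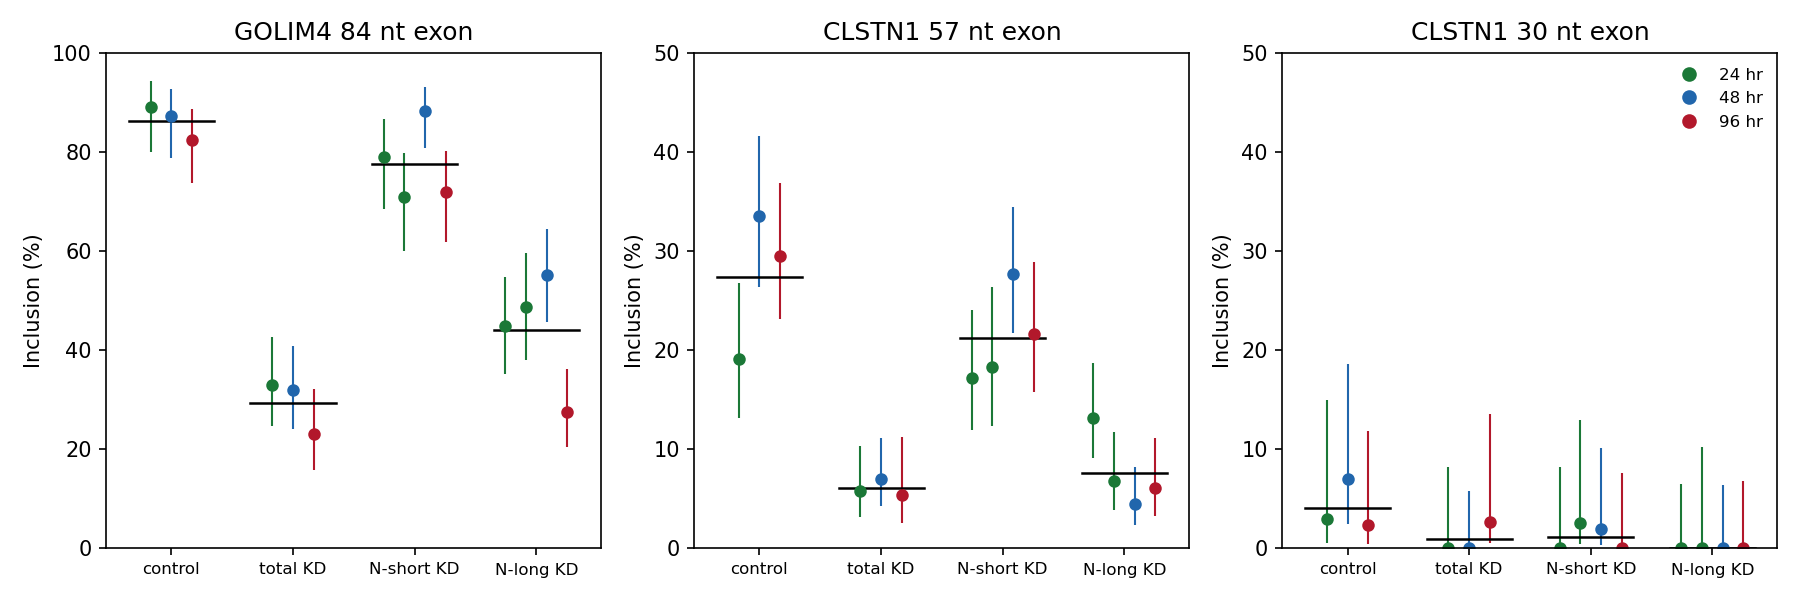
Inclusion (%) of 3 exons in each treated HUES66 library, by knockdown; points are libraries coloured by time, bars are 95% Wilson intervals and black lines are group means. GOLIM4 total KD libraries (23.0% to 33.0%) lie below all controls (82.5% to 89.2%), and the CLSTN1 panels have an axis that ends at 50%.

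The CLSTN1 30 nt exon did not pass the filter, because its pooled inclusion was 1.24% in the treated libraries. It was at 2.94%, 6.98% and 2.27% in the controls, from 1 to 3 inclusion reads each. In the junction files it had 0 inclusion reads in all 4 N-long KD libraries, of 34 to 57 reads each, which allows a share of up to 5.26% to 8.82% per library. The authors' event tables hold 1 inclusion read in 2 of these libraries, 24 hr replicate 2 (2.4%) and 96 hr (1.6%), so the exon is not shown to be absent there. Total KD had 0 at 24 and 48 hr and 1 read at 96 hr (2.63%), and N-short KD ranged from 0% to 2.5%. The fourth exon, of 124 nt, had 3 inclusion reads of 1661 in all 19 libraries.

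The authors' own event tables carry inclusion levels for the same exons. For GOLIM4 these levels were within 3.79 points of the junction-file values in all 14 libraries, for the CLSTN1 57 nt exon within 2.13 points and for the CLSTN1 30 nt exon within 4.16 points. In the authors' deposited table the GOLIM4 inclusion difference, control minus knockdown, was 0.565 at 48 hr and 0.582 at 96 hr for total KD. The authors' deposited table gave 0.292 and 0.261 for the CLSTN1 57 nt exon at those times. Their 24 hr differences include a control column that matched no sample title and are not set beside the values here.

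Gene reads of GOLIM4 and CLSTN1 overlapped between all groups. GOLIM4 normalised CPM was 92.0 ± 5.47 in controls (SD, n = 3), 88.8 ± 7.50 in total KD (n = 3), 91.2 ± 4.65 in N-short KD (n = 4) and 87.2 ± 2.48 in N-long KD (n = 4). CLSTN1 was 170.2 ± 8.67 in controls, 159.8 ± 13.3 in total KD, 169.0 ± 10.4 in N-long KD and 168.6 ± 15.2 in N-short KD. Within library sets the largest mean log2 difference of each gene was that of CLSTN1 in total KD, -0.09 ± 0.07 (SD, n = 2 sets), and that of GOLIM4 in N-long KD, -0.08 ± 0.08 (SD, n = 3 sets). These reads include the junctions of the cassette exons. On introns outside those exons, total KD gave -0.06 ± 0.04 for CLSTN1 and 0.08 ± 0.14 for GOLIM4 (SD, n = 2 sets). N-long KD gave -0.06 ± 0.10 for GOLIM4 (SD, n = 3 sets).

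The fitted log2 fold changes against control for GOLIM4 were -0.02 (SE 0.05) with total KD, 0.00 (SE 0.05) with N-short KD and -0.06 (SE 0.05) with N-long KD. For CLSTN1 they were -0.06 (SE 0.04), 0.01 (SE 0.04) and 0.02 (SE 0.04). Neither gene was past the threshold in any of the contrasts, where 2.28% of 13393 genes were for total KD, 0.00747% for N-short KD, 0.0224% for N-long KD and 0.0149% for N-long against N-short KD. In bulk RNA, fewer cells of a kind and less RNA per cell cannot be told apart.

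**Figure D2:**
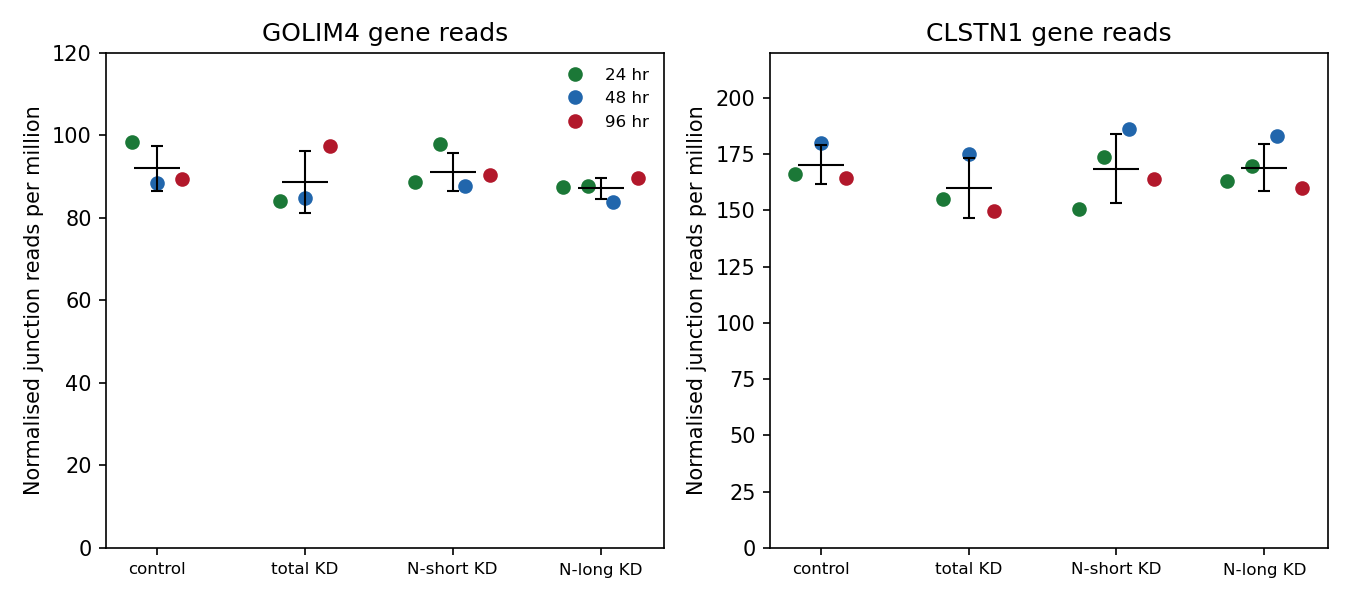
Normalised CPM of GOLIM4 and CLSTN1 in each treated library, by knockdown; points are libraries coloured by time and black marks are means with SD. All groups overlap, between 83.8 and 98.3 for GOLIM4 and between 149.6 and 186.3 for CLSTN1.

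Reads along the genes were uneven. Of 16 annotated GOLIM4 introns all 16 had reads, and those that neither join nor skip the 84 nt exon held 400 to 2119 reads over the 19 libraries. The lowest, at chr3:168032853-168036835, had 400 reads. The junction into the 84 nt exon from the previous exon had 855 reads and the junction out of it 1431, so inclusion computed from the smaller of the junctions is lower. CLSTN1 had 23 annotated introns, all with reads, and the first intron, 50248 nt long, had 578.

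Time itself was not used to choose the genes. The test of 96 hr against 48 hr used the 8 libraries of these times, with 1 library of each group at each time. These libraries are among those whose knockdown differences chose the genes, so the test is not independent of that choice. The GOLIM4 84 nt exon fell in all 4 groups, with differences of -4.88 points in control, -8.90 in total KD, -27.7 in N-long KD and -16.4 in N-short KD. In control the Wilson intervals overlapped, 78.8% to 92.8% at 48 hr and 73.7% to 88.8% at 96 hr. Its log2 odds ratio was -1.19 (SE 0.24; edgeR quasi-likelihood test, adjusted p = 0.000896), and 15.3% of 6863 exons were called in either direction. The CLSTN1 57 nt exon had a log2 odds ratio of -0.28 (SE 0.21; edgeR, adjusted p = 0.445), with lower values in 3 of 4 groups.

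Gene reads moved with time too, as did most genes: 60.1% of 12909 were called. CLSTN1 fell by 0.19 on the log2 scale (SE 0.03; edgeR, adjusted p = 3.37e-05). GOLIM4 had a log2 fold change of 0.09 (SE 0.04; edgeR, adjusted p = 0.0929), which did not pass. The labels place all 8 libraries in 1 library series, and time cannot be told apart from other differences between the 48 hr and 96 hr libraries.

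**Figure D3:**
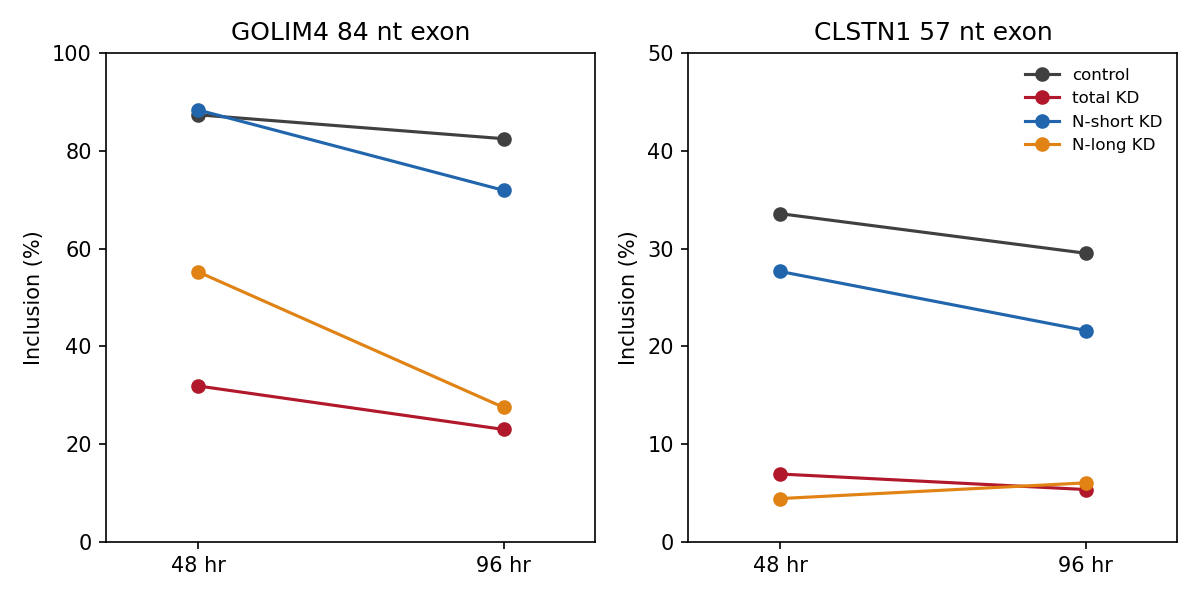
Inclusion (%) of the GOLIM4 84 nt and CLSTN1 57 nt exons at 48 and 96 hr; each line joins the 2 libraries of a group. All 4 GOLIM4 lines go down, from 55.2% to 27.5% in N-long KD, and the CLSTN1 panel has an axis that ends at 50%.

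Genes that work beside GOLIM4 and CLSTN1 were read from 7 lists of 152 genes. They covered calsyntenins and their partners, GOLIM4 relatives with Golgi manganese handling, golgins, the COPI and COPII coats, and cargo receptors. The last list covered retrieval between endosomes and the trans-Golgi network. Of 147 tested genes, 1 rose and 1 fell in total KD, or 2 in all, beside 2.28% of all genes. MIA2, which takes part in loading large cargo into COPII carriers, rose by 0.24 on the log2 scale (SE 0.06; edgeR, adjusted p = 0.0214). AP1S2, a small subunit of the AP-1 clathrin adaptor, fell by 0.24 on the log2 scale (SE 0.05; edgeR, adjusted p = 0.00866). The median log2 fold change over the lists was -0.02, against 0.00 over all genes. The lists were chosen with earlier results of these data known, and the p-values of their genes carry that limit.

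Neither call held in every alternative. Without the control of 24 hr replicate 2, or without total KD of 48 hr, 0 list genes passed, and without the 48 hr control MIA2 did not (edgeR, adjusted p = 0.237). Without total KD of 24 hr replicate 1 there were 5. For N-short KD, N-long KD and N-long against N-short KD edgeR called 0 list genes, and DESeq2 also called 0. At an unadjusted edgeR p under 0.05 there were 1, 5 and 7 of 147 list genes. Over all 13393 genes there were 543, 595 and 679, and nothing is read from these counts. The smallest unadjusted p in N-long KD was that of KIF5C, a kinesin heavy chain, at a log2 fold change of 0.18 (SE 0.04; edgeR, adjusted p = 0.121). AP1S2 and COG3, a subunit of the COG tethering complex, followed with -0.14 each (edgeR, adjusted p = 0.99 and 1.00). With N-short KD AP1S2, SAR1B and TMED2 had -0.11, -0.15 and 0.09, and with N-long against N-short KD KIF5C, COPE and ATP2C2 had 0.15, -0.14 and -0.38, with edgeR adjusted p of 0.184 to 0.999.

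Among 103 tested cassette exons of 55 list genes, 1 was called for total KD, for N-long KD and for N-long against N-short KD, the 57 nt exon of APP at chr21:25997360-25997416. Over all tested exons 1.28%, 0.466% and 0.349% were called in these contrasts, so a count of 1 of 103 is near the background and says nothing of the lists. APP is the amyloid precursor protein, whose vesicles calsyntenin 1 helps to move. The APP exon was included at 48.2% to 62.3% in controls, at 33.0% to 44.4% in total KD, at 38.0% to 50.4% in N-long KD and at 49.9% to 58.7% in N-short KD. The total KD libraries were below every control, and N-long KD overlapped the controls.

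The APP exon fell by 17.7 points ± 0.134 (SD, n = 2 sets) in total KD (log2 odds ratio -0.89, SE 0.10; edgeR, adjusted p = 1.26e-07). In N-long KD it fell by 9.09 points ± 5.52 (SD, n = 3 sets; edgeR, adjusted p = 0.000502), and it differed from N-short KD by -7.76 points ± 3.17 (SD, n = 4 sets; edgeR, adjusted p = 0.00303). In N-short KD its log2 odds ratio was -0.09 (SE 0.10). The list that holds APP was chosen with earlier results of these data known, so these p-values carry that limit. These calls of an exon from a list of partners were not made by limma on log2 ratios, with adjusted p of 0.447 to 0.829, and those of N-long KD were not made without the library set term.

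**Figure D4:**
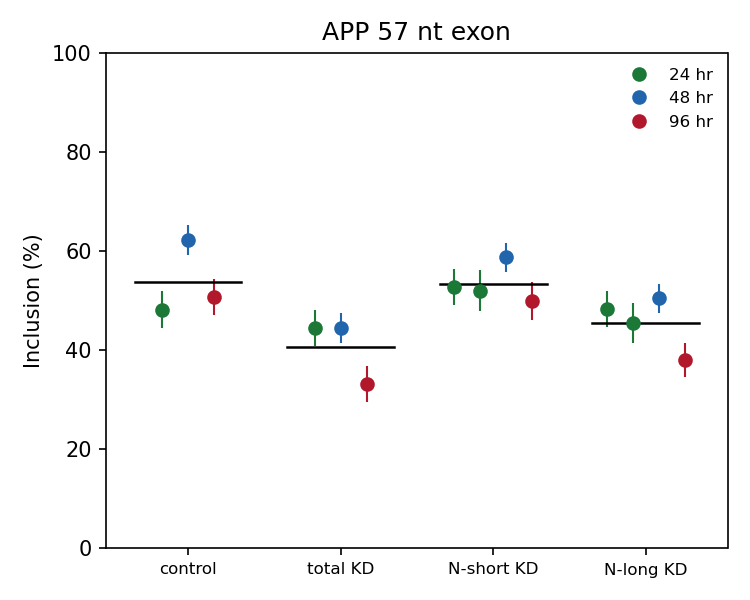
Inclusion (%) of the APP 57 nt exon in each treated library, by knockdown; points are libraries coloured by time, bars are 95% Wilson intervals and black lines are group means. Total KD lies at 33.0% to 44.4% and control at 48.2% to 62.3%.

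The 3 cell lines differed in the CLSTN1 exons and not measurably in the GOLIM4 exon, with 1 library each and therefore no test. By the labels each of these libraries belongs to a different library series. Among these libraries cell line therefore cannot be told apart from series, for inclusion or for gene reads. The HEK293 series also holds a HUES66 library, the control of 24 hr replicate 2, which was given doxycycline. There the CLSTN1 57 nt exon was at 19.05% against 69.6% in HEK293, and the GOLIM4 exon at 89.2% against 83.2%. What sets these differences was not tested. GOLIM4 84 nt inclusion was 79.3% in HUES66, 83.2% in HEK293 and 81.7% in A375 total RNA. The largest difference, HEK293 minus HUES66, was 3.90 points with a 95% interval of -5.77 to 12.5. The order of these neighbours is therefore not resolved at this depth.

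CLSTN1 57 nt inclusion was 26.6% in HUES66, 69.6% in HEK293 and 93.4% in A375 total RNA. A375 exceeded HUES66 by 66.8 points (59.2 to 72.5), HEK293 exceeded HUES66 by 43.0 points (32.6 to 52.0) and A375 exceeded HEK293 by 23.9 points (14.5 to 33.3). The range of 66.8 points over the lines was reached or exceeded by 0.573% of 4366 tested exons with 20 reads in each line, whose median range was 6.79 points. The CLSTN1 30 nt exon followed the same order, with 1.16%, 20.0% and 32.6%, and the HEK293 and A375 values overlapped in their intervals (10.0% to 35.9% and 20.5% to 47.5%).

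In these libraries gene reads of CLSTN1 and GOLIM4 had the same order as inclusion of the CLSTN1 57 nt and GOLIM4 84 nt exons. The order of GOLIM4 inclusion was unresolved, as was that of HUES66 and HEK293 in CLSTN1 reads. CLSTN1 was at 143.7 CPM in HUES66, 149.4 in HEK293 and 256.9 in A375 total RNA. The HUES66 to HEK293 ratio of 0.962 had an exact interval of 0.905 to 1.02. The treated HUES66 controls, at 155.6, 174.2 and 152.6 CPM, were above HEK293. GOLIM4 was at 84.1 CPM in HUES66, 105.8 in A375 total RNA and 128.4 in HEK293. These values compare 1 gene across lines, since levels of the 2 genes were not scaled by length.

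In the A375 fractions both genes had about 10 times more CPM in nuclear than in cytoplasmic RNA. GOLIM4 had 154.9 CPM in the nuclear, 15.4 in the cytoplasmic and 105.8 in the total library, a nuclear to cytoplasmic ratio of 10.1 (exact interval 8.90 to 11.4). CLSTN1 had 394.7, 39.0 and 256.9 CPM, a ratio of 10.1 (9.37 to 10.9). Both lay above 96.7% of 12759 genes, whose median log2 ratio was -0.11.

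The cytoplasmic fraction was, per the labels' protocols, the supernatant of a low-salt lysis with a mild detergent, and the nuclear fraction its washed pellet. Of all list genes 49 of 144 were more than 2-fold higher in the nuclear library, beside 22.7% of all genes. The share was 6 of 6 for Golgi manganese handling, 16 of 21 for cargo receptors and 10 of 18 for calsyntenins and their partners. It was 5 of 20 for golgins, 4 of 17 for the COPII coat, 7 of 45 for endosome and trans-Golgi retrieval and 1 of 17 for the COPI coat. No test was made of these shares, and what sets the ratio of a gene was not tested.

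Inclusion in the fractions is given in points, which share no scale with the ratios of gene reads. The CLSTN1 57 nt exon was at 79.4% in nuclear and 84.3% in cytoplasmic RNA, a difference of -4.87 points (-14.4 to 6.73). Its value in A375 total RNA, 93.4% (88.0% to 96.5%), was above both fractions and its interval did not overlap the nuclear one (72.7% to 84.8%). The GOLIM4 exon was at 90.4% and 72.4%, a nuclear excess of 18.0 points (2.33 to 36.8) from 73 and 29 reads.

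**Figure D5:**
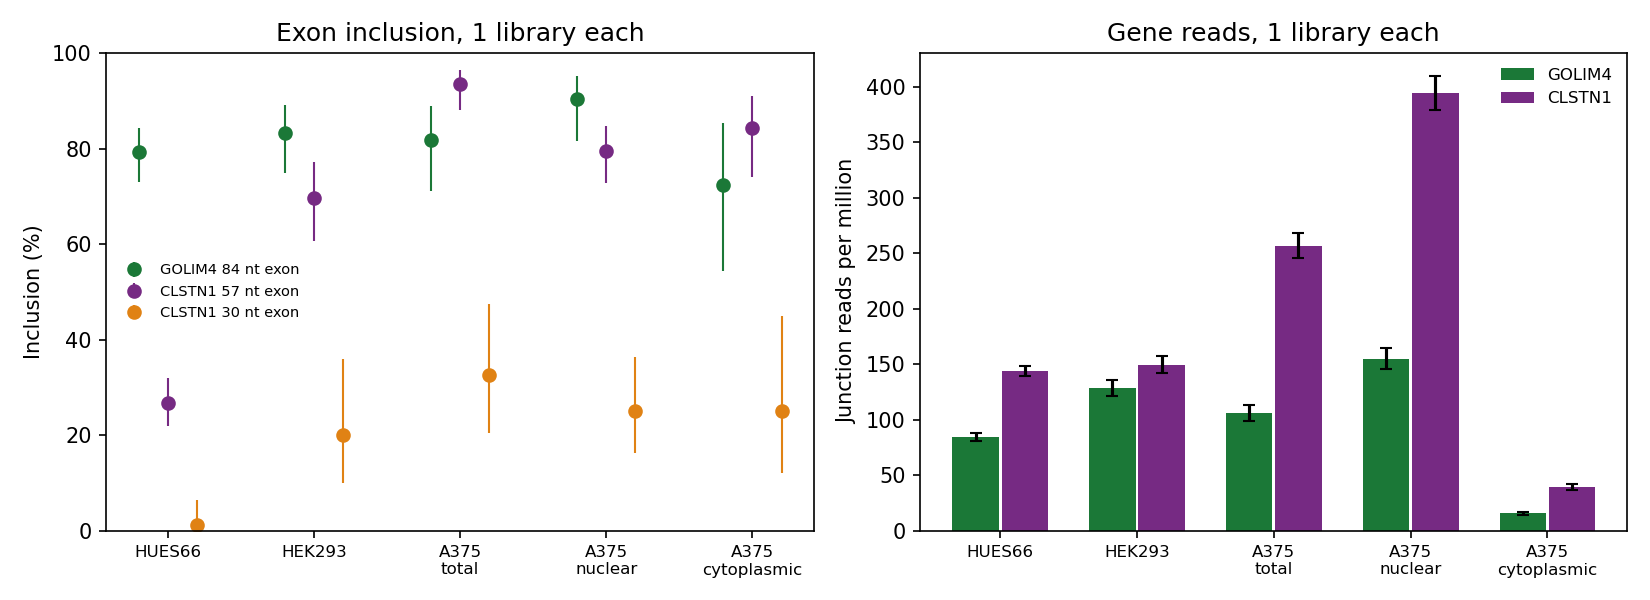
Left, inclusion (%) of 3 exons with 95% Wilson intervals, and right, CPM of GOLIM4 and CLSTN1 with exact Poisson intervals, in the untreated libraries, 1 library each. CLSTN1 57 nt inclusion runs from 26.6% in HUES66 to 93.4% in A375, and both genes are lowest in A375 cytoplasmic RNA, at 15.4 and 39.0 CPM.

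The exons most like the CLSTN1 57 nt exon across the 19 libraries, by Pearson r of inclusion among 909 exons with 20 reads in every library and a range of at least 20 points, were in CTTN (111 nt, r = 0.99), LRRFIP2 (72 nt, r = 0.97), FOXM1 (45 nt), FAM49B (83 nt) and DST (18 nt), the last 3 at 0.96. For the GOLIM4 84 nt exon they were in DIAPH1 (27 nt, r = 0.92), ARHGAP17 (49 nt, r = 0.81), BTBD3 (91 nt, r = 0.78), APP (57 nt, r = 0.72) and MYO18A (45 nt, r = 0.71). Most of the points share a cell line and a knockdown series. By gene reads, among 8453 genes, GOLIM4 was most like IGF2R (r = 0.99) and CLSTN1 most like CALU (r = 0.99), with the low A375 cytoplasmic library among the points.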

How the data were processed

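Junction files hold raw counts of spliced reads per junction as deposited. Per the submitters' processing notes the build was hg38 and the tools included STAR 2.7.1 and SAMtools 1.9; strand setting and filters are not given in the sources used here. The authors' 9 event tables hold read counts, inclusion levels as a fraction, and their difference, a fraction from -1 to 1 that the authors took as control minus knockdown; 9 per-sample columns with no matching title were not used.

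Introns were annotated with GENCODE 29. Reads were summed per gene. Exons entered with 20 or more reads on average and 2% to 98% inclusion in the pooled libraries. Fits used edgeR 4.0.16 in R 4.3.3 (quasi-likelihood, TMM factors, Benjamini-Hochberg, threshold 0.05) with library set as a term; DESeq2 1.42.0 and limma 3.58.1 were alternatives. The fits were tested on simulated data. Library sets pair the samples: residuals correlated at a median of 0.75 within sets and -0.28 between them. Named pathway genes were the called ones (at most 3 per list and direction), or the 3 smallest unadjusted p where none was called. Members and lists were chosen with earlier results of these data known.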

Additional observations from a re-analysis of the deposited data

Results flagged for a closer look

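GOLIM4 84 nt inclusion in N-short KD differed from control by +0.993 points at 48 hr and by -10.6 points at 96 hr, opposite signs at 2 times; the difference between the times was not tested, and each value compares 1 library with 1. An unannotated GOLIM4 junction at chr3:168010824-168024522, whose donor site is 3 nt from the annotated one, had at least 0.182 CPM in each total KD library against at most 0.164 in controls, that is 2 to 5 reads against 1 to 2. An unannotated CLSTN1 junction at chr1:9735134-9735466 had at least 0.0761 CPM in each N-short KD library against at most 0.0751 in controls, or 1 to 2 reads against 0 to 1. Both are at the limit of the depth. In 11 groups of 4 libraries tested for a library far from the others, none was flagged.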

How the results depend on the processing

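The inclusion differences of the GOLIM4 and CLSTN1 exons kept their sign in every alternative run. The 24 hr libraries of a time point were pooled without the replicate block in one alternative, which gave -21.4 points for the CLSTN1 57 nt exon in total KD; the authors' inclusion levels gave -27.7. For GOLIM4 in total KD the smaller inclusion junction gave -65.5 points and HUES66 wild type as 24 hr control -53.7. Called list genes in total KD were 0 without the replicate block, 4 with HUES66 wild type as control and 0 to 5 when a library was left out. In N-long KD they were 1 without a filter and 0 to 1 with a library left out, and in N-long against N-short KD 1 without a filter. The APP exon count was 0 with limma in all 3 contrasts that called it, 0 without the replicate block in N-long KD and in N-long against N-short KD, and 0 to 1 in the latter with a library left out. Its log2 odds ratio in N-short KD ranged from -0.23 to 0.0010 with a library left out. The causes were not tested. The 96 hr calls kept their side of the threshold, with adjusted p up to 0.0469 for the GOLIM4 exon and 0.00074 for the CLSTN1 gene. Depth leaves the CLSTN1 30 nt exon with 0 to 3 inclusion reads in each treated library.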

Other observations

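A GOLIM4 donor site 3 nt from the annotated one, in the intron that ends at 168029222 in GENCODE 29, was used in all 19 libraries. It took 223 of 669 reads, or 33.3% (Wilson interval 29.9% to 37.0%), and 20.8% to 44.4% in single libraries. A junction of CLSTN1 that GENCODE 29 lacks, chr1:9743941-9744394, had 3 reads in wild-type HUES66, and 0, 5 and 3 in the controls of 24 hr replicate 2, 48 hr and 96 hr. It had 1 read in all 11 knockdown libraries together, 2 in A375 total RNA, 1 in A375 nuclear RNA and 0 in A375 cytoplasmic RNA and HEK293. It was picked out after its values were seen, and 1 of the 3 controls was at 0 like most knockdown libraries. A GOLIM4 junction that skips the 84 nt exon and the next exon together had 28 reads in the 19 libraries.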
